A study of Mus musculus with 4 samples.

Results

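Interferon-stimulated genes are the transcripts that cells switch on after an interferon binds its receptor. The list followed here named 42 of them, chosen by symbol, and 40 had a probe among the 21153 gene symbols on the arrays. Mx1 and Mx2, dynamin-like GTPases that block viral replication, had no probe matched to their symbol. Oas1g, an oligoadenylate synthetase, had 2 probes and neither was well above background on any array. The other 39 members were tested among 14409 genes, 37 of them with signal well above background on all 4 arrays. Oas3 reached that mark on knockout 1 and wild type 1 only, and Ifit2 did not reach it on knockout 2.

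Expression was measured in small intestine of Cyp3a-/- mice (knockout 1 and knockout 2) and of wild-type mice (wild type 1 and wild type 2), with 2 arrays per genotype. The knockout lacks the Cyp3a cluster, neighbouring genes for cytochrome P450 enzymes that oxidise drugs and steroids. The labels name no treatment or infection, and strain, sex, age and the number of animals behind each RNA are not given in the sources used here. They do say that different animals were used in 2 independent experiments, without saying which arrays belong together. Each array was read in a single colour. A level below is the log2 signal of a probe minus the 75th percentile of its own array, so 0 marks that percentile. A difference is knockout minus wild type on that log2 scale, with the standard error (SE) of the limma fit. With 2 arrays per genotype, their number limits the precision of each value, and p-values measure only the spread between these samples.

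Between 55.2% and 64.4% of probes were well above background on an array, and no spot was saturated. Knockout 1 and wild type 2 shared a slide, while knockout 2 and wild type 1 were each alone on one. All 6 tested Cyp3a cluster genes fell in the knockout (limma's adjusted p between 0.00167 and 0.0259). Cyp3a11, a main drug-oxidising P450 of mouse, had levels of -5.77 and -4.52 in the knockout, neither well above background, and of 5.05 and 5.78 in wild type. Enterocyte markers, which define the absorptive cells of this tissue, had mean levels of 6.21 and 4.67 on the knockout arrays and of 5.31 and 4.91 on the wild-type arrays, with all 10 measured.

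Interferons reach cells through 3 receptor types. Type I interferons (alpha and beta) and type III interferons (lambda) activate STAT2, which acts with IRF9 in a complex that binds the interferon-stimulated response element of target promoters. Interferon gamma, the type II interferon, acts on target promoters through the gamma-activated site. In the intestine the epithelium responds strongly to interferon lambda, and T cells and innate lymphocytes are sources of interferon gamma. Many of these genes are transcribed at a low tonic level without infection.

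The members are defined by this regulation, so their promoter letters are shown first. Promoters of 31 of the 42 members were in the RefSeq table of build GRCm38.p6, each running from 250 bases before to 50 bases after the gene's start. The core of the response element was searched as GAAA, any 2 bases and GAAA on either strand, and the core of the gamma-activated site as TTC, any 3 bases and GAA, which reads the same on both strands. A gene was counted if any of its promoter windows held a match. The response element core was in 18 of 31 member genes (58.1%), against 3.99% of 27025 genes in the table. The gamma-activated core was in 10 of 31 (32.3%), against 9.55%. Both were in 6 of 31 (19.4%), against 0.540%. A match is a description of the letters and does not show that a factor binds there.

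Stretches of 100 bases are given for 8 members, picked after their values were seen as the ones the results below turn on or as familiar examples, each in the gene's own direction with matches in capitals. Isg15 lies on the minus strand at chr4:156200836-156200935, and its 3 overlapping response element cores begin 78, 72 and 66 bases before the start. Ifit1 (chr19:34640749-34640848, plus strand) holds 2 response element cores on the opposite strand, which read TTTC, any 2 bases and TTTC here, and Rsad2 (chr12:26456518-26456617, minus strand) holds 1 such copy 120 bases before its start. Igtp (chr11:58199471-58199570, plus strand) and its neighbour Irgm2 (chr11:58214862-58214961, plus strand) share a near-identical stretch, with 97 of 100 positions alike and both motifs side by side. Irgm1 (chr11:48871393-48871492, minus strand) holds 2 overlapping response element cores. Irf1 (chr11:53769878-53769977, plus strand) and Isg20 (chr7:78913305-78913404, plus strand) hold the gamma-activated core without the response element core in the window.
Isg15: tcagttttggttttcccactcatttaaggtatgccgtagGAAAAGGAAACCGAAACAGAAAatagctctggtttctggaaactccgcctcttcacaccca
Ifit1: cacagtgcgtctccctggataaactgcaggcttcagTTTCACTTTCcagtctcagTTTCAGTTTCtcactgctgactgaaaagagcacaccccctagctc
Rsad2: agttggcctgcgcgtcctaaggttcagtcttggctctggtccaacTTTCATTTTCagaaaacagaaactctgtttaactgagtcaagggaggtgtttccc
Igtp: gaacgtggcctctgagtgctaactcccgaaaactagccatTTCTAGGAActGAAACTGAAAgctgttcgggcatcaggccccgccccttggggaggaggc
Irgm2: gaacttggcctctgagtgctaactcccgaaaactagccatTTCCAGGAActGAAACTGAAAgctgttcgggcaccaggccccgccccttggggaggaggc
Irgm1: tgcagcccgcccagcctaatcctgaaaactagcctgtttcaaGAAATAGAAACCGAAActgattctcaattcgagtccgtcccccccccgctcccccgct
Irf1: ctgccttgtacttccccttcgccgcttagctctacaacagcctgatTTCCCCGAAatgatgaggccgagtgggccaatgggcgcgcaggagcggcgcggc
Isg20: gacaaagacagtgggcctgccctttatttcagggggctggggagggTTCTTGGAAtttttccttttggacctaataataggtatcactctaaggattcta

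Loss of the Cyp3a cluster was set against wild type for each member. None of the 39 tested members passed the threshold, with 0 higher and 0 lower in the knockout (limma, Benjamini-Hochberg adjusted over all genes, every member's adjusted p = 1.00). At an unadjusted p under 0.05 the count was also 0 of 39. Over all 14409 genes, 6 were called, or 0.0416%, each of them a Cyp3a cluster gene and lower in the knockout, and 63 genes (0.437%) had an unadjusted p under 0.05. The median difference of the members was 0.13, beside 0.04 over all genes. The difference was above 0 in 31 of 39 members and below 0 in 8, beside 56.2% of all genes above 0. Under normexp it was above 0 in 23 of 39, beside 53.9% of all genes, with a median of 0.27, and without knockout 1 in 10 of 39. The SE of a member's difference lay between 0.27 and 0.73. In simulated data of this size, limma recovered 0.6% of genes changed 2-fold, 22.3% at 4-fold and 87.5% at 16-fold, so that differences of a few fold could go uncalled.

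**Figure D1:**
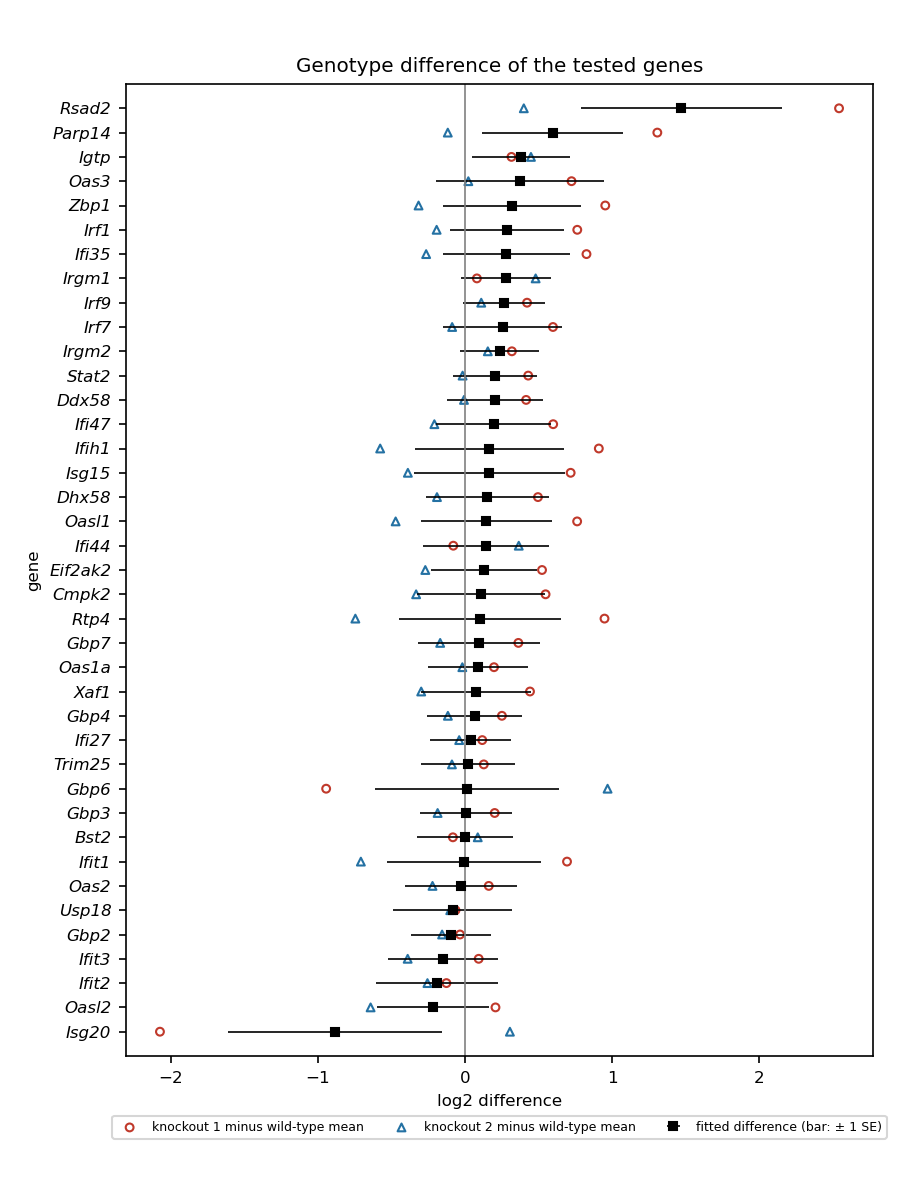
Log2 difference, knockout minus wild type, for the 39 tested interferon-stimulated genes (horizontal axis, black squares with bars of 1 SE from limma), ordered by that difference down the page, with open circles for knockout 1 and open triangles for knockout 2, each minus the wild-type mean. Of the squares, 31 lie above 0 and 8 below, none passed the threshold, and the widest bars belong to Rsad2, Isg20 and Gbp6.

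The median hid unlike values in the 2 knockout arrays. Over all tested genes knockout 1 stood apart, with correlations across genes of 0.948 to 0.966 with the other arrays, which correlated at 0.979 to 0.981 with each other. Set against the wild-type mean, the median over members was 0.42 for knockout 1 and -0.15 for knockout 2. Within the slide that held both genotypes, knockout 1 minus wild type 2 had a median of 0.57, beside 0.08 over all genes. Without knockout 1 the median was -0.15, and without wild type 2 it was -0.10. Without knockout 2 it was 0.42, and without wild type 1 it was 0.32. The sign of the members' median therefore depended on which arrays were used.

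Each knockout array lay above each wild-type array in 3 members, Rsad2, Irgm1 and Irgm2, beside 8.65% of all genes. Each lay below in 1 member, Ifit2, beside 6.09% of all genes. Those counts are 7.69% and 2.56% of the members, so neither exceeds the share among all genes. Under the normexp background correction the count above was 7 of 39 members, a larger share than the 1663 of 14409 genes. The count below was 2 of 39, beside 1612 of 14409 genes (11.2%).

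Rsad2 encodes viperin, an enzyme that makes a chain-terminating nucleotide which stops viral RNA synthesis. Its level was 0.11 on knockout 1 and -2.03 on knockout 2, against -2.36 and -2.50 on wild type 1 and 2. Knockout 1 stood far above the other arrays, and knockout 2 lay just above the wild-type pair. The difference was 1.47 (SE 0.68), a 2.77-fold higher signal in the knockout that did not pass (limma's unadjusted p = 0.0733, adjusted p = 1.00). Without knockout 2 the difference was 2.54 and passed (adjusted p = 0.00173), while without knockout 1 it was 0.40 and did not pass. Cmpk2, a mitochondrial nucleotide kinase gene next to Rsad2 on chromosome 12, had levels of -0.40 and -1.28 in the knockout and of -0.57 and -1.34 in wild type. On these probes both genes were higher on replicate 1 of each genotype, by 2.14 in the knockout and 0.14 in wild type for Rsad2, and by 0.88 and 0.77 for Cmpk2.

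**Figure D2:**
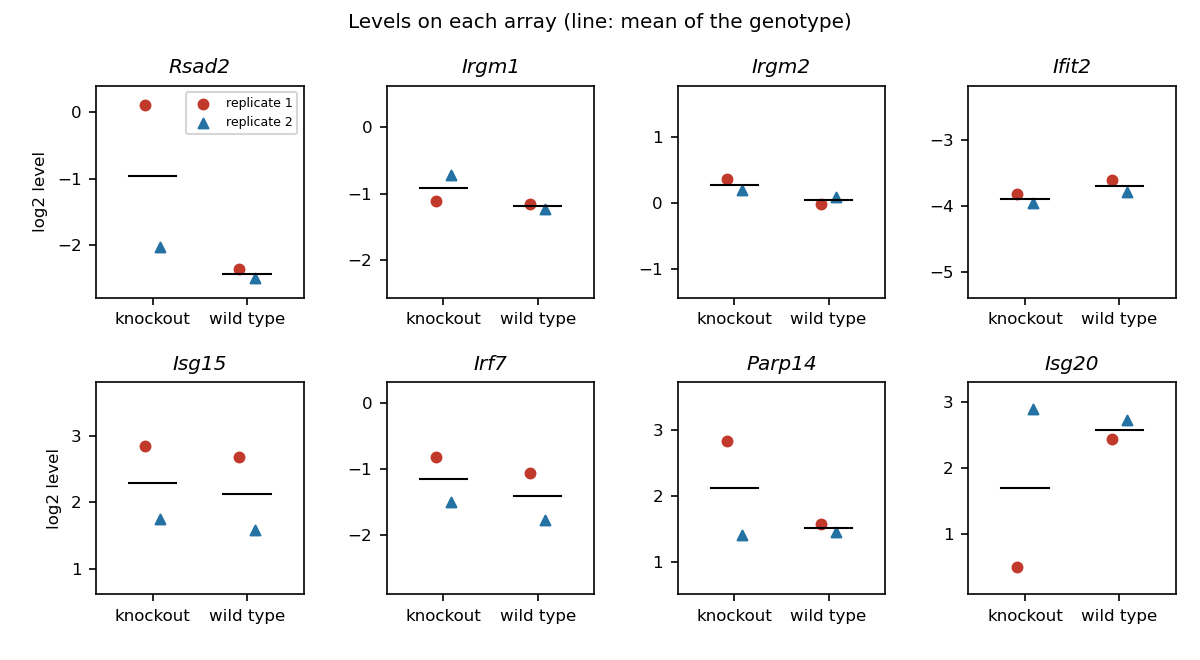
Log2 level relative to the array's 75th percentile (vertical axis, each panel spanning 3.2 units) of 8 members on the knockout and wild-type arrays. Points are arrays and lines the mean of each genotype (n = 2). Rsad2 and Parp14 were high and Isg20 low on knockout 1 alone, while Isg15 and Irf7 were high on replicate 1 of both genotypes.

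Isg20, an exonuclease that degrades single-stranded RNA, had the reverse pattern on the same array. Its level was 0.51 and 2.89 in the knockout, against 2.44 and 2.72 in wild type. Knockout 1 was low and the other 3 arrays lay close together. The difference of -0.88 (SE 0.73, limma's unadjusted p = 0.27, adjusted p = 1.00) was 0.31 without knockout 1. Without knockout 2 it was -2.07 and passed (adjusted p = 0.00277). A second Isg20 probe had -0.84 and 1.61 in the knockout against 1.03 and 1.23 in wild type, with knockout 1 low again.

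Parp14, an ADP-ribosyltransferase, had levels of 2.83 and 1.41 in the knockout, against 1.58 and 1.46 in wild type. Again only knockout 1 stood apart. Its difference was 0.60 (SE 0.48, limma's unadjusted p = 0.26, adjusted p = 1.00), and 1.31 without knockout 2, where it passed (adjusted p = 0.0403). Those 3 genes were the members with a call in any leave-one-out fit, all from the fit without knockout 2. That fit assumes that the lone knockout array varies like the wild-type pair, and it called 446 genes in all, or 3.1% of those tested (0.972% higher and 2.12% lower).

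The immunity-related GTPases act on vacuoles that hold intracellular bacteria and parasites, and interferon gamma is their main inducer. All 4 had a difference above 0, between 0.20 and 0.38 (3 of 4 above 0 under normexp), and none passed. Irgm1, which steers the other members of this family, had levels of -1.11 and -0.71 in the knockout against -1.16 and -1.23 in wild type. The gap between the closest arrays of the genotypes was small beside the spread of the knockout pair (difference 0.28, SE 0.31, limma's unadjusted p = 0.392, adjusted p = 1.00). A second Irgm1 probe had -3.05 and -2.49 in the knockout against -3.10 and -3.21 in wild type. Irgm2, likewise a regulator of this family, had 0.36 and 0.20 in the knockout against -0.01 and 0.10 in wild type (difference 0.24, SE 0.27, limma's unadjusted p = 0.408, adjusted p = 1.00). Igtp, which lies beside Irgm2 and shares the promoter stretch shown above, had 0.79 and 0.93 in the knockout against 0.84 and 0.11 in wild type. Its low value on wild type 2 set its difference of 0.38, and the genotypes overlapped. Ifi47 had 1.72 and 0.92 in the knockout against 1.45 and 0.79 in wild type, with a difference of 0.20 (SE 0.39).

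The guanylate-binding proteins are large GTPases that coat such vacuoles and free bacteria. Their 5 differences lay between -0.09 and 0.10, with 4 of 5 above 0 (median 0.01). Under normexp 4 of 5 lay above 0 as well, with a median of 0.37. Without knockout 1 it was 1 of 5 (median -0.15), and without wild type 2 also 1 of 5 (median -0.10). Gbp2 varied least of all members over the 4 arrays, with -0.38 and -0.50 in the knockout and -0.38 and -0.31 in wild type. Gbp3 had -0.96 and -1.35 in the knockout and -1.06 and -1.28 in wild type, and Gbp4 had -0.85 and -1.22 against -0.90 and -1.30. In Gbp2, Gbp3 and Gbp4 the genotypes overlapped, and the range over the 4 arrays was between 0.19 and 0.45. Gbp7 had -3.08 and -3.61 in the knockout and -3.52 and -3.37 in wild type. Gbp6 was the exception in spread, with 3.16 and 5.07 in the knockout and 4.34 and 3.86 in wild type. Its difference was 0.01 (SE 0.62), because the knockout arrays lay on either side of wild type. A dim second Gbp6 probe did not share this pattern, at -4.49 and -5.90 in the knockout and -3.76 and -5.21 in wild type, and it was well above background on 2 arrays only.

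The Ifit proteins bind foreign RNA, and all 3 had a difference below 0, although under the normexp background correction all 3 lay above 0 and under quantile or median scaling 1 of 3 did. Ifit1, which recognises RNA caps that lack a host methyl mark, had -1.48 and -2.88 in the knockout against -1.97 and -2.37 in wild type, a difference of -0.01 (SE 0.52). Ifit2 had -3.83 and -3.96 in the knockout, the second not well above background, against -3.62 and -3.79 in wild type. Its arrays lay within 0.34 of each other, so the lack of overlap was narrow (difference -0.19, SE 0.41, limma's unadjusted p = 0.662, adjusted p = 1.00). Ifit3, a partner that stabilises Ifit1 in human cells, had -1.11 and -1.60 in the knockout against -0.87 and -1.54 in wild type, a difference of -0.15 (SE 0.37).

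The nucleic acid sensors start the interferon response or halt translation when foreign RNA appears. All 5 had a difference above 0, between 0.13 and 0.32, and 0 of 5 passed. Under normexp 3 of 5 lay above 0, without knockout 1 0 of 5 did, and a second Ddx58 probe had a difference of -0.37. Ddx58 (RIG-I), which senses short RNA with a triphosphate end, had 1.86 and 1.44 in the knockout against 1.74 and 1.15 in wild type, a difference of 0.21 (SE 0.33). Ifih1 (MDA5), which senses long double-stranded RNA, had 2.14 and 0.66 in the knockout against 1.04 and 1.43 in wild type. Its knockout arrays were the highest and the lowest of the 4. Zbp1, a sensor of Z-form nucleic acid that can trigger cell death, had 1.23 and -0.04 in the knockout against 0.52 and 0.02 in wild type. Dhx58 (LGP2) tunes RIG-I and MDA5, and it had -1.75 and -2.44 in the knockout against -1.92 and -2.58 in wild type. Eif2ak2 (PKR), a kinase that stops translation, had -0.08 and -0.87 in the knockout against -0.49 and -0.71 in wild type.

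Differences of the signalling factors were also all above 0, between 0.21 and 0.29, and 0 of 4 passed, but 1 of 4 lay above 0 under normexp and 1 of 4 without knockout 1. Irf1, a transcription factor induced strongly by interferon gamma, had 4.91 and 3.96 in the knockout against 4.21 and 4.09 in wild type (difference 0.29, SE 0.39). Irf7, which amplifies type I interferon production, had -0.82 and -1.50 in the knockout against -1.07 and -1.77 in wild type. Irf9 and Stat2 act together at the response element. Irf9 had 2.25 and 1.94 in the knockout against 1.94 and 1.71 in wild type, and Stat2 had 1.54 and 1.09 against 1.15 and 1.07. In Irf1, Irf7, Irf9 and Stat2 knockout 1 was the highest array, and knockout 2 lay within or below the wild-type range.

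Isg15, a ubiquitin-like protein attached to other proteins during infection, had 2.85 and 1.75 in the knockout against 2.69 and 1.58 in wild type. The replicates of each genotype lay 1.11 apart, while the genotypes differed by 0.17 (SE 0.51). A second Isg15 probe had -1.54 and -2.85 in the knockout against -2.12 and -2.92 in wild type, again high on replicate 1. Usp18, which removes Isg15 and dampens the type I receptor, had -1.79 and -1.82 in the knockout against -1.26 and -2.19 in wild type. Trim25, a ubiquitin ligase that activates RIG-I, had 5.22 and 5.00 in the knockout against 5.29 and 4.89 in wild type, a difference of 0.02 (SE 0.32).

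The oligoadenylate synthetases make a messenger that turns on RNase L, which cuts viral RNA. Oas1a had 2.74 and 2.53 in the knockout against 2.92 and 2.17 in wild type. Oas2 had -1.68 and -2.06 in the knockout against -1.50 and -2.19 in wild type, so that in each of these 2 genes the knockout arrays lay inside the wild-type range. Oas3, which lies next to Oas2 on chromosome 5, had -3.84 and -4.54 in the knockout against -4.07 and -5.06 in wild type. Oasl1, which in mouse restrains translation of Irf7, had 4.95 and 3.72 in the knockout against 4.15 and 4.23 in wild type, a difference of 0.15 (SE 0.45). Oasl2 lies beside Oasl1 and had 1.46 and 0.61 in the knockout against 1.50 and 1.00 in wild type. The neighbours Oasl1 and Oasl2 differed in wild type, where Oasl1 was nearly level and Oasl2 was higher on replicate 1. Genes of the Oas, Ifit and Gbp families are close in sequence, and a probe may take up signal from more than its own gene.

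Bst2, or tetherin, holds budding virus at the cell surface, and its difference was 0.00 (SE 0.33) with 1.09 and 1.26 in the knockout against 1.52 and 0.82 in wild type. Ifi27 had 3.18 and 3.02 in the knockout against 3.20 and 2.93 in wild type, a difference of 0.04 (SE 0.28). Ifi35 had 2.50 and 1.41 in the knockout against 1.95 and 1.39 in wild type. Ifi44 had -3.65 and -3.20 in the knockout against -3.37 and -3.77 in wild type, and was among the few members higher on knockout 2. Xaf1, a promoter of cell death, had -0.18 and -0.92 in the knockout against -0.37 and -0.87 in wild type. Rtp4, a chaperone of membrane receptors, had 1.20 and -0.50 in the knockout against 0.30 and 0.20 in wild type, where the knockout arrays enclosed the wild-type pair.

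Members also differed between arrays of the same genotype. Knockout 1 was above knockout 2 in 33 of 39 members, beside 47.5% of all genes, and wild type 1 was above wild type 2 in 33 of 39, beside 53.9%. The median of knockout 1 minus knockout 2 was 0.48, and that of wild type 1 minus wild type 2 was 0.40. Over all genes these medians were -0.04 and 0.04. Replicate 1 was the higher array in both genotypes in 28 of 39 members (71.8%), beside 25% of all genes. Replicate 2 was higher in both for Isg20 alone, and 10 members had the replicates opposed. Ifih1, Oasl1, Irgm2, Gbp2 and Gbp7 were higher on knockout 1 but lower on wild type 1. Bst2, Igtp, Irgm1, Gbp6 and Ifi44 were lower on knockout 1 but higher on wild type 1. Knockout 1 was the highest of the 4 arrays in 24 of 39 members, beside 34.1% of all genes. With the normexp background correction the count of 28 was 17 of 39, beside 25% of all genes, with 21 of 39 higher on knockout 1 and 33 of 39 on wild type 1. No test was made of these counts. Members respond to shared signals and are not independent, and a shared replicate number was not shown to mark a shared experiment.

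**Figure D3:**
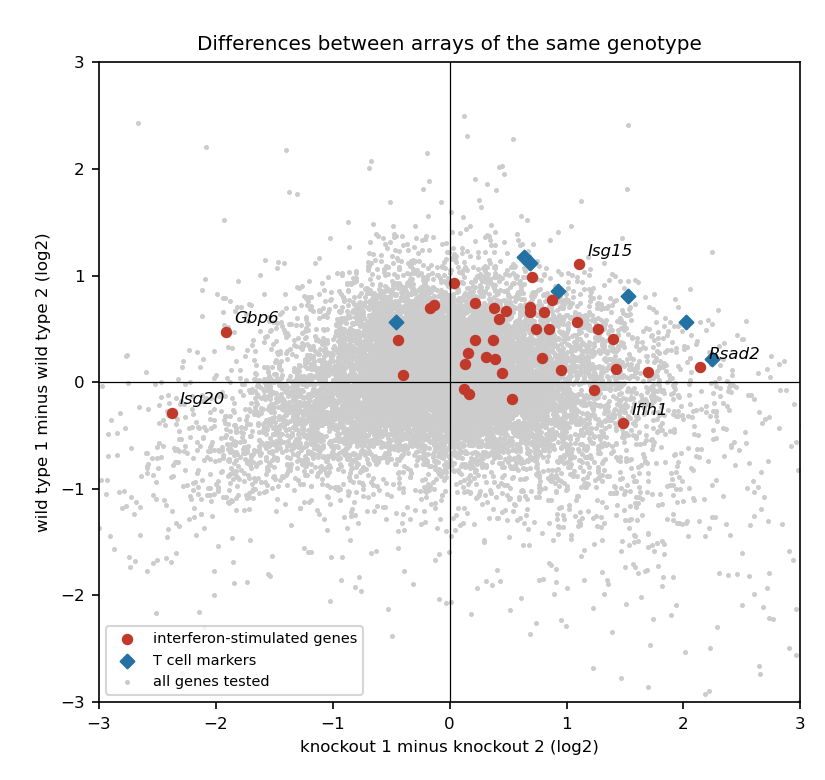
Knockout 1 minus knockout 2 (horizontal axis) against wild type 1 minus wild type 2 (vertical axis), both as log2 differences, for the 39 interferon-stimulated genes, the tested T-cell markers and all tested genes. Of the members, 28 lie in the upper right, where replicate 1 is higher in both genotypes, and Isg20 alone lies at the lower left. A further 116 of the genes lie beyond the axis limits of 3.

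The pattern ran through most roles. It held in 4 of 5 sensors, 4 of 4 signalling factors, 3 of 3 genes of the ISG15 system, 4 of 5 oligoadenylate synthetases and 3 of 3 Ifit genes. It held in 2 of 5 guanylate-binding proteins and in 1 of 4 immunity-related GTPases. It also held in 2 of 4 other antiviral effectors and in 5 of 6 members outside these groups. Under normexp it held in 3 of 5 sensors, 2 of 4 signalling factors and 2 of 3 genes of the ISG15 system. There it held in 2 of 5 oligoadenylate synthetases, 0 of 3 Ifit genes and 0 of 5 guanylate-binding proteins. For immunity-related GTPases it was 2 of 4, for other antiviral effectors 2 of 4 and for the remaining members 4 of 6. Whether the role groups differ was not tested. Of the members with the pattern and a promoter in the table, 10 of 20 held the response element core, and of the other tested members 7 of 10 did. For 9 members a second probe was well above background on at least 2 arrays, and in 7 of these it had the same signs between replicates. The exceptions were Gbp6, above, and Cmpk2, whose second probe had -2.47 and -1.93 in the knockout and -0.86 and -2.06 in wild type.

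**Figure D4:**
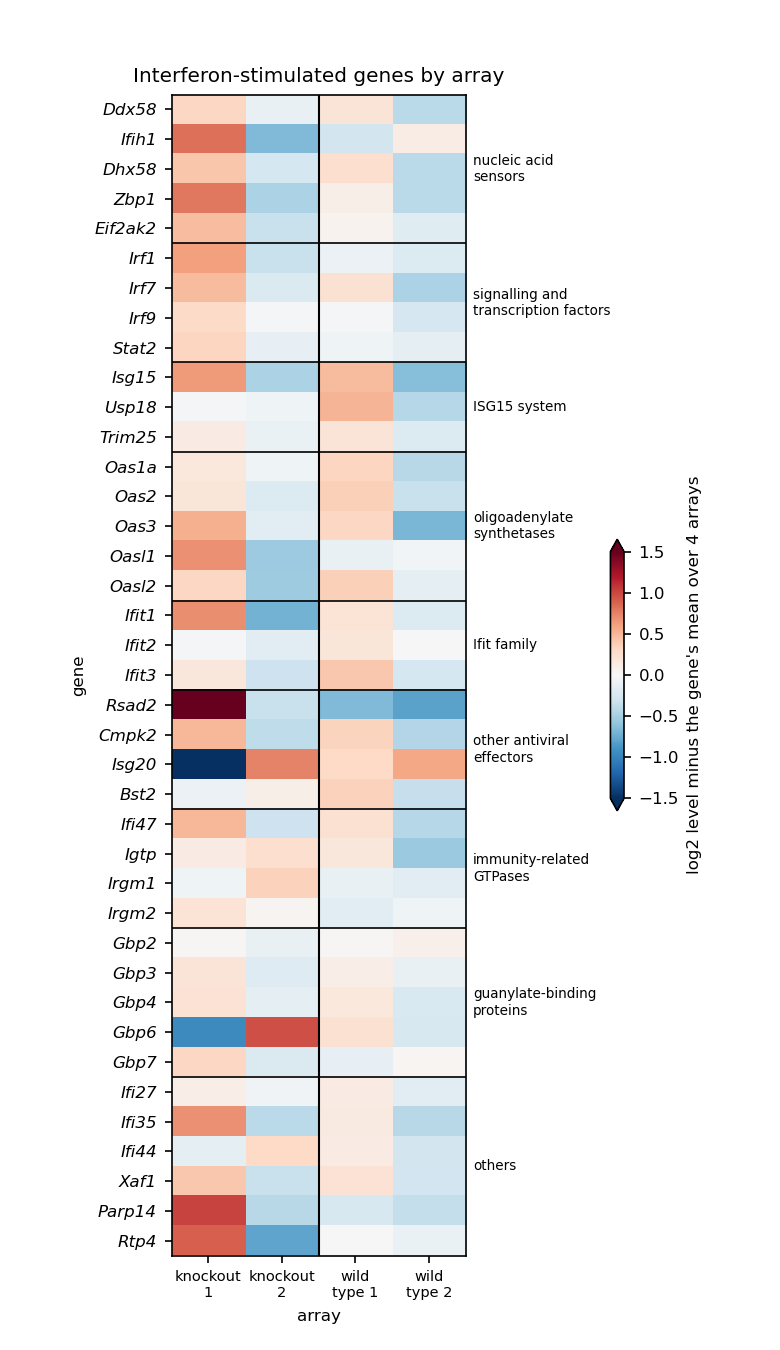
Level of each tested member on the 4 arrays (columns, knockout left of wild type), drawn as the log2 level minus the gene's mean over the arrays, with rows grouped by role and colours held at 1.5 in either direction. Red fills most of the columns knockout 1 and wild type 1, with median centred levels of 0.31 and 0.17, and blue most of knockout 2 and wild type 2, with -0.21 and -0.25.

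Markers of other cell types moved between the same arrays. In bulk RNA, fewer cells of a type and less RNA per cell cannot be told apart. T-cell and intraepithelial lymphocyte markers were tested for 7 of 9 genes, and 6 of 7 were higher on replicate 1 in both genotypes. Their mean level was 1.37 and 0.29 on the knockout arrays and 1.29 and 0.54 on the wild-type arrays. Gzma, a granzyme of these cells, had 5.31 and 3.78 in the knockout and 4.92 and 4.11 in wild type. Cd8b1 was not well above background on enough arrays to be tested, nor was any of 4 natural killer cell markers. Enterocyte markers had the pattern in 8 of 10. Macrophage and dendritic cell markers had it in 5 of 7, with mean levels of -0.81 and -1.29 in the knockout and of -0.66 and -0.88 in wild type. The pattern held in 1 of 4 plasmacytoid dendritic cell markers, 2 of 4 B and plasma cell markers, 1 of 4 endothelial markers and 2 of 6 markers of all epithelium. Smooth muscle markers were higher on replicate 2 in both genotypes in 5 of 6 genes, with mean levels of 3.34 and 4.97 in the knockout and of 4.20 and 4.35 in wild type. All 6 fibroblast markers were also higher on replicate 2 in both, but under normexp 4 of 6 were higher on knockout 1 than on knockout 2. In that setting replicate 1 was higher in both genotypes in 5 of 7 T-cell markers and 7 of 10 enterocyte markers. It was so in 3 of 7 macrophage and dendritic cell markers and in 3 of 6 markers of all epithelium. The counts were 1 of 4 plasmacytoid dendritic cell, 1 of 4 B and plasma cell and 0 of 4 endothelial markers. The part of cell makeup, slide or signal strength in the members' pattern was not tested. The 75th percentile of signal was 322 and 175 on the knockout arrays and 226 and 356 on the wild-type arrays.

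Between genotypes, 0 genes of these marker lists passed. Differences lay above 0 in all 10 enterocyte markers (median 0.25), and below 0 in all 7 tested macrophage and dendritic cell markers (median -0.25), all 4 tested B and plasma cell markers (median -0.44) and all 6 smooth muscle markers (median -0.10). Under normexp the enterocyte markers lay above 0 in 2 of 10 the macrophage and dendritic cell markers below 0 in 3 of 7, and the B and plasma cell markers below 0 in 3 of 4. Without knockout 1 the enterocyte markers lay above 0 in 2 of 10 and the smooth muscle markers in 6 of 6 (median 0.69). Distal small intestine markers lay above 0 in 3 of 3 (median 0.75), and in 3 of 3 under normexp (median 0.92). With the filter on all 4 arrays 2 were left, and 2 of 2 lay above 0 (median 0.57). Proximal small intestine markers lay above 0 in 2 of 4 (median 0.01), and in 0 of 4 under normexp (median -0.50). These proximal markers lay above 0 in 0 of 4 without knockout 1 and in 4 of 4 without knockout 2. Liver markers lay below 0 in 4 of 4 (median -0.97), with mean levels of -2.01 and -0.38 in the knockout and of 1.64 and -1.78 in wild type. They were high on wild type 1, and without that array 3 of 4 lay above 0 (median 0.77).

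Other genes of the interferon pathway gave no call either. Of 128 such genes, 116 had a probe and 103 were tested, with 0 higher and 0 lower in the knockout and 0 at an unadjusted p under 0.05 (limma, every adjusted p = 1.00). Their median difference was 0.09, beside 0.04 over all genes. It was above 0 in 67 (65.0%) and below 0 in 36, beside 56.2% of all genes above 0. Without knockout 1, 31 of 103 lay above 0 (median -0.13). Each knockout array lay above each wild-type array in 5 of 103 and below in 3 of 103, or 4.85% and 2.91%, beside 8.65% and 6.09% of all genes. Replicate 1 was higher in both genotypes in 42 of 103 (40.8%), beside 71.8% of the members and 25% of all genes. Under normexp the counts were closer, at 34 of 103 pathway genes and 17 of 39 members, beside 25% of all genes.

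Interferon genes themselves were mostly out of reach. Of 20 ligands, 16 had a probe and 7 were tested, and Ifnb1, Ifng, Ifne and Ifnk were not well above background on enough arrays. Ifnl3, an interferon lambda that acts on epithelium, had -2.30 and -3.60 in the knockout against -3.39 and -2.64 in wild type. Ifna5 and Ifna12, interferon alpha genes, were each well above background on 1 array per genotype, with differences of -0.83 (SE 0.68) and 0.35 (SE 0.48). None of the 7 ligands had the replicate pattern of the members, but only 2 of them were well above background on all 4 arrays. Knockout 1 was above knockout 2 in 5 of 7 ligands, and wild type 1 above wild type 2 in 0 of 7. Under normexp these counts were 0 of 7 and 6 of 7.

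All 6 receptor chains were measured, with differences from 0.02 to 0.42. Under normexp 2 of 6 lay above 0, and without knockout 1 it was 1 of 6 (median -0.12). The replicate pattern held in 5 of 6 chains, and in 4 of 6 under normexp, beside 25% of all genes in each setting. Ifnar1 and Ifnar2, the type I receptor, had differences of 0.02 (SE 0.32) and 0.06 (SE 0.27). Ifngr1 had 4.10 and 3.85 in the knockout against 3.97 and 3.67 in wild type, while Ifngr2 had 4.11 and 2.92 against 3.28 and 2.91. These 2 chains form the interferon gamma receptor. Knockout 1 was the highest array for all 6 receptor chains, beside 34.1% of all genes. Ifnlr1 and Il10rb, the type III receptor, had differences of 0.03 (SE 0.35) and 0.30 (SE 0.31).

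In the list of kinases and transcription factors, Batf2, an interferon-induced transcription factor, had a difference of 0.32 (SE 0.31). Bcl3, a nuclear partner of NF-kappaB, had 3.93 and 2.12 in the knockout against 2.02 and 2.62 in wild type. Its difference was 0.71 (SE 0.60), and without knockout 2 it was 1.61 and passed (limma's adjusted p = 0.025). Of the genes that induce interferon, Ikbke, a kinase of IRF3 and IRF7, had a difference of 0.52 (SE 0.42) and Tank, an adaptor of that kinase, 0.23 (SE 0.30). Among negative regulators, Socs3 had 2.35 and 1.03 in the knockout against 0.86 and 1.60 in wild type, a difference of 0.46 (SE 0.50). Cyld, a deubiquitinase, had a difference of -0.16 (SE 0.27).

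Among the other targets, 58 of 68 were tested, and 23 of 58 had the replicate pattern. Tgtp1 and Tgtp2 are near-identical GTPase genes whose probes may share signal. Tgtp1 had -3.33 and -5.59 in the knockout, the second not well above background, against -3.40 and -3.20 in wild type, a difference of -1.16 (SE 0.77). Tgtp2 had 0.65 and 0.66 in the knockout against 0.53 and 0.05 in wild type, a difference of 0.37 (SE 0.29). Ido1, also a target of this list, was well above background on knockout 1 and wild type 2 only, which shared a slide. Besides Bcl3, Ido1 and Ifit1bl1 were the pathway genes past the threshold without knockout 2, with differences of 2.72 and 1.30 in that limma fit. They are 3 of 103 pathway genes (2.91%), beside 3.1% of all genes called there.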

How the data were processed

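Per the labels, Cy3-labelled RNA of small intestine from Cyp3a-/- and wild-type mice was hybridised to Agilent arrays in 1 colour. The labels gave genotype and replicate number, with 2 arrays per genotype. The image software was Agilent Feature Extraction 11.5.1.1, per the submitters' processing notes. The deposited processed intensity is background-subtracted and detrended, per the file headers. The authors' value table holds log2 values of unstated scale, and set against the scanner files over 39408 probes it was log2 processed intensity minus the array's 75th percentile minus the probe's median, within 0.01. Its column medians were -0.108 and 0.124 for knockout 1 and 2 and 0.053 and -0.095 for wild type 1 and 2. That table keeps no levels.

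Controls and the 91 to 129 outlier-flagged spots of an array were dropped, and a probe's remaining spots were averaged. Of 39429 probes, 28025 matched 1 symbol by accession without version in the RefSeq table of GRCm38.p6, and 11404 matched none or several. The array design names an older build, so array positions are not used. Probes well above background on at least 2 of 4 arrays were kept, with the brightest per symbol. The genotypes were tested by lmFit and eBayes, trend on intensity (limma 3.58.1, R 4.3.3), Benjamini-Hochberg adjustment over 14409 genes and a threshold of 0.05. The fit was tested on simulated data (14409 genes, 200 changed, 20 simulations), where 5.18% of calls were false.

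Members, gene lists and markers were chosen with earlier results of these data known. Every member is named, and full statistics go to members whose genotypes do not overlap, the 3 of smallest p and the brightest of each role. Pathway genes are all receptors and up to 2 of smallest p per list, and 1 gene that the rule names is not reported here. Other names are given because a sentence turns on them. With slide as a fixed term no spread is left to estimate, and the shared slide's own difference is a value with no test. The alternatives were normexp on median spot and background intensity (the planned mean signal is not used here), quantile and median scaling, the authors' table, other filters, probe rules and variance settings, the replicate number as a block, and each array left out in turn.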

Additional observations from a re-analysis of the deposited data

How the results depend on the processing

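Across the settings with all 4 arrays, 0 of the 37 to 40 members tested and 0 of the other interferon pathway genes passed in limma. Leaving out an array gave 0 to 2 members higher, 0 to 1 lower and 0 to 3 other pathway genes higher, the upper values without knockout 2, where 3.1% of all genes were called. Cyp3a cluster genes lower numbered 0 to 6 in these fits, 0 without either wild-type array, and 0 under the filter on all 4 arrays, which left none to test. The members' median difference was -0.15 to 0.42 in the leave-one-out fits and 0.57 within the shared slide, which gives no test. Under normexp it was 0.27, beside 0.08 over all genes. Members with both knockout arrays above wild type numbered 7 of 39 under normexp and those below 2, beside 1663 and 1612 of 14409 genes in that setting. Those below numbered 0 under quantile normalization, 0 under median scaling and 0 with the filter on all 4 arrays. Replicate 1 was higher in both genotypes in 17 members under normexp, and in 26 to 30 under the other settings tried. Of 56 named genes, the sign of the difference changed in 27 under normexp, 30 without knockout 1, 8 without knockout 2, 6 without wild type 1 and 18 without wild type 2, and in 0 to 7 elsewhere. Among these 56 genes no such change involved a called value, and the cause was not tested. Ifit1bl1, not among them, had a difference of -0.05 with all 4 arrays and of 1.30 without knockout 2. The replicate numbers were not shown to pair the samples, since the deviations of knockout 1 and wild type 1 from their group means had a correlation of 0.051 over all genes. With the replicate block, 32 of 14409 genes were called against 6 without it, with 0 members, and the members' median difference was 0.13. The number of arrays and the dim signal of genes such as Oas3 and Ifit2 limit what could be called.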

Other observations

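Several interferon targets outside the 39 tested members, named after their values were seen, showed how far single arrays stood apart. Ido1, an enzyme that breaks down tryptophan, had -1.26 and -5.61 in the knockout against -4.91 and -3.06 in wild type, and was well above background on 1 array of each genotype. Ifit1bl1, a relative of Ifit1, had 0.06 and -2.66 in the knockout against -1.18 and -1.31 in wild type. The chemokine gene Cxcl9 had -1.85 and -3.79 in the knockout against -2.86 and -3.18 in wild type, and Cxcl10 had -1.88 and -3.14 against -2.86 and -2.27. In these 4 genes knockout 1 was the highest array and knockout 2 the lowest, and none passed with all 4 arrays. Apol9a, an apolipoprotein L gene, was higher on replicate 1 in both genotypes, with 2.43 and 1.20 in the knockout against 2.06 and 1.27 in wild type, and Trim30a was so with -1.91 and -2.66 against -2.36 and -2.87.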
